A study of Mus musculus with 4 samples.

Results

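The long protein-coding genes of mouse chromosome 19 were followed in lamina-associated domain (LAD) maps of hepatocytes with and without *Tm7sf2*. A gene was included when its span in the NCBIM37 (mm9) annotation, end minus start, was at least 100000 bases. This gave 61 genes of the 724 protein-coding genes on chromosome 19 and of 22367 on all chromosomes. The shortest was *Slc22a27* at 101.6 kb and the longest *Prkg1* at 1196 kb, and together the 61 spans held 14.4 Mb, or 23.5% of the chromosome. No 2 of them overlapped. The rule uses position and length only, but chromosome 19 was taken up with its LAD results known, so the set is not independent of them.

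Primary hepatocytes came from mice of 12 to 16 weeks on a C57BL/6 background, either *Tm7sf2*+/+ (WT) or *Tm7sf2*-/- (KO), a germline loss that also affects every other cell of the animal. Cells of each genotype were transduced with a lentivirus for LaminB1-Dam or for Dam alone, which gave 4 libraries, 1 per construct and genotype, each from DNA pooled over 4 mice. The deposited lists hold the LADs of each genotype and the differential regions (DRs), stretches of at least 10 kb in a LAD of one genotype and outside the LADs of the other. With 1 LAD list per genotype there is no replicate check, so all differences below are descriptions of these lists and carry no test. The lists hold positions only, so read depth behind a LAD is unknown here, and the KO libraries were less deeply sequenced by the study's account, so that genotype and depth cannot be told apart. The lists hold no RNA values, and the hepatocyte label was not checked against marker genes here.

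In DamID, a bacterial Dam methylase tethered to the lamina marks the adenine of GATC sites that come near the nuclear envelope (NE), and Dam alone gives the background of accessible chromatin. LADs are mostly gene-poor, AT-rich and weakly transcribed, and long genes of neurons and other specialised cells often lie in them in cell types that do not use them. A long gene can span several LADs, so its promoter and its body need not share a position. *Tm7sf2* encodes a multispanning NE protein with sterol reductase activity. The gene itself lies on chromosome 19 (chr19:6062821-6068373, minus strand), 350.4 kb from the nearest long gene, *Nrxn2*, and had 0% of its span in LADs of either genotype.

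LAD borders on chromosome 19 lie at GATC sites, as the longest WT-only DR on these genes shows. It was 174.5 kb long and lay inside *Prkg1* (chr19:30869918-31044444, mm9). Both borders are printed here from the plus strand with 64 bases each and the site in capitals, the left at chr19:30869885-30869948 and the right at chr19:31044412-31044475.
left border: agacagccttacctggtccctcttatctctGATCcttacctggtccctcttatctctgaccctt
right border: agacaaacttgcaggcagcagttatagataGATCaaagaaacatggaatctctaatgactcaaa
All 484 WT and 808 KO borders on chromosome 19 fell in a GATC site in this way, as did 98.93% of the WT and 99.53% of the KO borders over all chromosomes.

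The 300 bases before a gene start are shown for 3 genes whose start lay in a LAD of one genotype only. By the outermost annotated start, *Tmc1* was the only gene with its start in a WT LAD alone, while *Prune2* and *Apba1*, chosen after their values were seen, stand for the 7 with a start in a KO LAD alone. The *Tmc1* window is chr19:21028693-21028992 on the minus strand, and those of *Prune2* (chr19:17030308-17030607) and *Apba1* (chr19:23833066-23833365) are on the plus strand, all 5′ to 3′ in mm9 with GATC in capitals.
Tmc1: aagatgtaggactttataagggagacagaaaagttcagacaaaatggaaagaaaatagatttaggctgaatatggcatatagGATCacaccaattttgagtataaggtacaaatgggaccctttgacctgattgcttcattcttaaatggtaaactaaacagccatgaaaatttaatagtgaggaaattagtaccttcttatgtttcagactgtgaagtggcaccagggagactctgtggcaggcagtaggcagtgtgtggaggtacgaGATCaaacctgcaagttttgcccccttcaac
Prune2: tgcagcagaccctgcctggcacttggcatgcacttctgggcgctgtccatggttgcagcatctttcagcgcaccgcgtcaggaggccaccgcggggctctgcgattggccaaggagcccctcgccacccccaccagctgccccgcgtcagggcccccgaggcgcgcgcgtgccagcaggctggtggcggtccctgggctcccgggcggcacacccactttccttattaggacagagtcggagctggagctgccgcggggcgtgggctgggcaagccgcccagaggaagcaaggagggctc
Apba1: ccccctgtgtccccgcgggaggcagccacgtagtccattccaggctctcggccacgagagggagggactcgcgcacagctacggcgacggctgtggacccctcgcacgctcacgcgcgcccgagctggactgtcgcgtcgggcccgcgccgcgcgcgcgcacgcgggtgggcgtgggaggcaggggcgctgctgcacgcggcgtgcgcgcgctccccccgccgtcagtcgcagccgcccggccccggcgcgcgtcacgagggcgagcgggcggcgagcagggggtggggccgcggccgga
The *Tmc1* window held 2 GATC sites and 40.0% GC, and those of *Prune2* and *Apba1* held 0 sites and 70.3% and 79.7% GC. Over the 7 starts in a KO LAD alone the median GC was 70.3%, against 62.0% over all 61 windows, and 2 of the 7 held a GATC site. Among the 7, *Apba1* had the highest GC and *Rnls* the lowest, at 42.0%, near the value of *Tmc1*. GATC, which reads the same on both strands, was found in 42.6% of the 61 windows and in 47.8% of the windows of all 724 chromosome 19 genes.

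Long genes of chromosome 19 lay less at the NE in KO than in WT hepatocytes. LADs covered 5.81 Mb (40.3%) of their summed spans in WT and 2.61 Mb (18.1%) in KO. Of the WT LAD bases, 3.74 Mb (64.5%) lay outside KO LADs and are called lost here, and 0.541 Mb (20.8%) of the KO LAD bases lay outside WT LADs and are called gained. Lost bases thus outnumbered gained bases 6.92 to 1. Over the other chromosomes the KO list did not hold less LAD sequence than the WT list (1478 Mb and 1448 Mb). A WT LAD reached 27 of the genes and a KO LAD reached 30, and among the 33 genes with either, 22 had fewer LAD bases in KO and 11 had more. The other 28 had no LAD in either genotype, so the median share of the span was 0% in both. Over the 27 genes with a WT LAD the median lost share was 71.8%, with a range from 0% to 100%.

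By the study's scheme a gene that meets a WT-only DR is PI (periphery in WT, interior in KO), one that meets a KO-only DR is IP, one that meets both is ambiguous (AMB), one with LADs in both and no DR is PP, and the rest are II. Among the 61 genes 16 were PI (26.2%), where 5.43% of all protein-coding genes were PI. Another 8 were IP (13.1%), against 17.1% of all genes, and 9 were AMB (14.8%), against 2.96%. None was PP, against 17.9% of all genes, and 28 were II (45.9%), against 56.6%. These calls need an overlap of only 1 base. With a DR over at least 50% of the span, 17 of the 61 were PP, 7 PI, 37 II, 0 IP and 0 AMB. DRs below that limit were not counted, so PP and II in this setting include genes with large losses. *Pcsk5*, with 46.1% of the span in WT-only DRs, became PP. *Glis3*, with 47.5% in WT-only DRs and no KO LAD, became II. Since a long span meets a DR more readily, the 2340 long genes of the other chromosomes are the nearer comparison, and of these 15.6% were PI, 31.9% IP, 20.6% AMB, 8.42% PP and 23.5% II. At least 1 WT-only DR was met by 41.0% of the chromosome 19 genes and by 36.2% of the long genes elsewhere, and at least 1 KO-only DR by 27.9% and 52.5%. The share touched by a loss was thus close when taken over all long genes. However, only 27 of the 61 (44.3%) had a WT LAD to lose, against 1343 of the 2340 elsewhere (57.4%). A WT-only DR was met by 25 of those 27 genes and by 848 of those 1343. The share of LAD bases lost was 64.5% on chromosome 19 and 13.8% elsewhere.

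**Figure D1:**
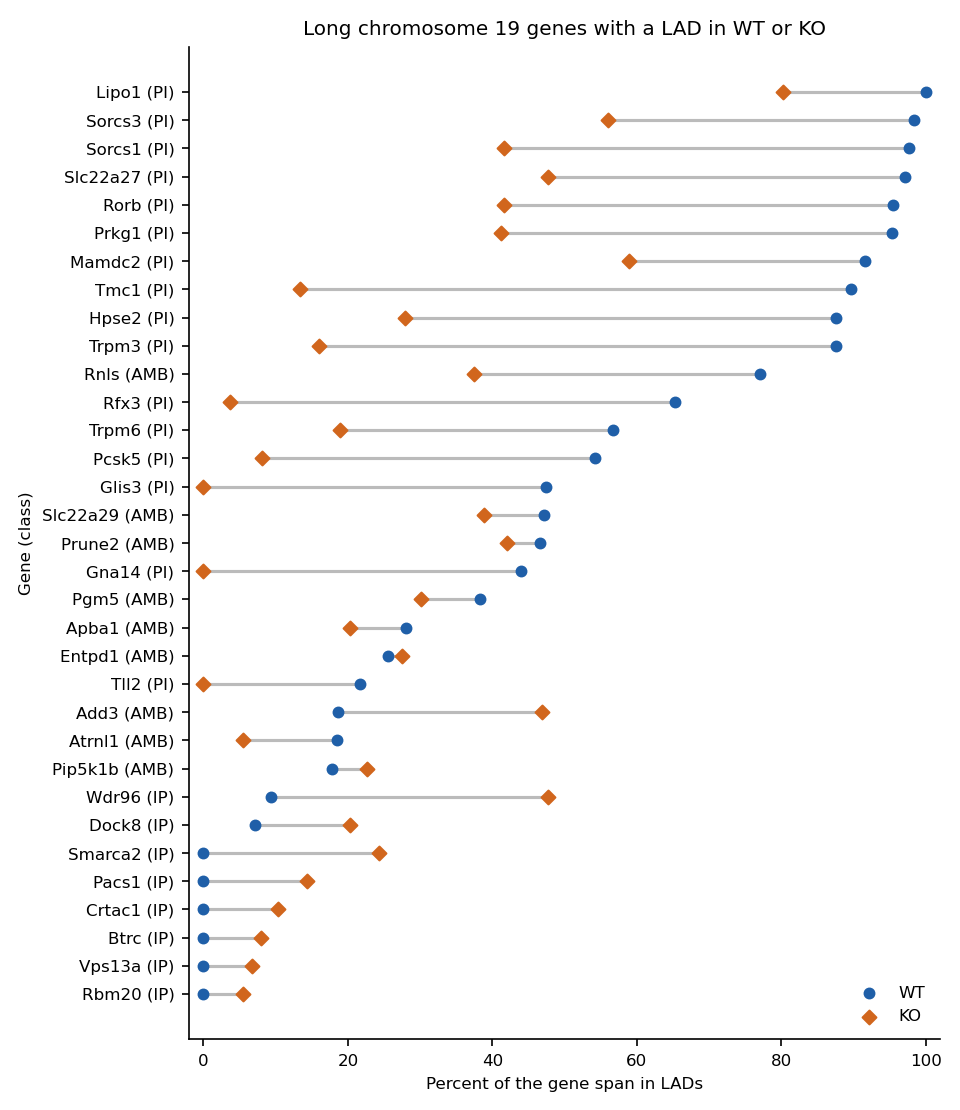
The percent of the gene span in LADs (x axis) for the 33 long chromosome 19 genes with a LAD in WT (circles) or KO (diamonds), 1 value per genotype, with the class in brackets. Genes are ordered by the WT share with the highest at the top, so PI and AMB genes are mixed. In all 16 PI genes KO lies to the left of WT, and the 8 IP genes at the bottom reach at most 47.7% of the span in KO.

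The list of ion channels and transporters held 4 of the genes, of which 3 were PI and the other, *Cnnm2*, was II. It did not include the organic anion transporter genes *Slc22a27* (PI) and *Slc22a29* (AMB), which are counted with the unlisted genes below. *Trpm3*, a cation channel known from heat sensing in sensory neurons, had 87.5% of its 850.8 kb in WT LADs and 16.0% in KO LADs, a loss of 611.3 kb. It met 9 WT-only DRs. KO had 8 short LADs on the gene, and the start lay in a LAD in both. *Tmc1*, a subunit of the mechanotransduction channel of inner ear hair cells, had 89.7% of the span in LADs in WT and 13.35% in KO. It had 19 of 21 exons in WT LADs only, 2 in LADs of both and 0 in neither. *Trpm6*, a magnesium channel with a kinase domain, had 56.7% in WT and 18.9% in KO. Over the 4 listed genes 82.3% of the WT LAD bases were lost, against 64.5% over all 61 genes. *Trpm3* alone held 744.5 kb of the 978.4 kb of WT LAD on these 4 genes.

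The transcription and chromatin factors comprised 6 genes, of which 3 were PI, 1 IP and 2 II (*Tle4* and *Tcf7l2*). *Glis3*, a zinc finger factor of pancreatic beta cells and thyroid, had 6 WT LADs over 47.5% of its 421.2 kb and none in KO. *Rfx3*, a factor for cilia genes, had 65.3% in WT and 3.64% in KO, and *Rorb*, an orphan nuclear receptor of retina and brain, had 95.45% and 41.6%. The IP gene was *Smarca2*, an ATPase of SWI/SNF chromatin remodelling complexes, with 0% in WT and 24.2% in KO, all in a single KO-only DR of 41.95 kb that began 11.7 kb past the start and held 8 of its 33 exons. The group lost 84.3% of its WT LAD bases.

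Genes of synapse, axon guidance and sorting receptors included 2 PI genes of the VPS10-domain sorting receptors, which carry cargo in neurons. *Sorcs1* had 97.6% of its 534.7 kb in WT LADs and 41.6% in KO LADs, and *Sorcs3* had 98.4% of its 599.5 kb and 56.0%. Both had the start in a LAD in KO, and the longest stretch lost lay toward the gene end, where most exons are. In *Sorcs1* 23 of 27 exons were in WT LADs only, and the last WT-only DR, 168.9 kb long, held 21 of them. In *Sorcs3* 20 of 27 exons were in WT LADs only, 13 of them in a DR of 99.5 kb. *Atrnl1*, a relative of attractin, was AMB with 18.5% of 522.3 kb in WT and 5.54% in KO. *Apba1*, a presynaptic adaptor that binds Munc18, was AMB too and is described with the gene starts below. *Nrxn2*, *Slit1* and *Gfra1* were II. The group lost 54.4% of its WT LAD bases.

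The signalling enzymes, adaptors and G proteins made up 12 genes, with 2 PI, 2 IP, 3 AMB and 5 II. *Prkg1*, the cGMP-dependent protein kinase 1 and the longest gene of the set, had 95.3% of its length in 4 WT LADs and 41.1% in 16 KO LADs. Its loss of 658.2 kb was the most of any of the 61 genes. Its 14 WT-only DRs covered 52.4% of the span, where lost bases made up 55.05% with differences under 10 kb included, and 11 of its 18 exons lay in WT LADs only. *Gna14*, a G protein alpha subunit of the Gq family, had 44.0% in WT and 0% in KO, whereas *Gnaq* of the same family, 254.6 kb long, was II. The IP genes *Dock8*, known from immune cells, and *Btrc*, an F-box subunit of a ubiquitin ligase, had 20.3% and 7.96% of the span in LADs in KO, against 7.085% and 0% in WT. The AMB genes were *Pip5k1b*, *Rnls* and *Entpd1*. *Plce1*, *Pik3ap1*, *Nt5c2* and *Grk5* completed the II genes. Of the WT LAD bases of the group 59.99% were lost, and *Prkg1* alone held 1139 kb of the 1506 kb.

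Among the 11 genes of cell adhesion, cytoskeleton and matrix, 4 were PI, 2 AMB and 5 II. *Hpse2*, a heparan sulfate-binding relative of heparanase, had 87.6% of its 599.4 kb in WT LADs and 27.9% in KO LADs, and 5 WT-only DRs of 19.05 to 155.0 kb. *Pcsk5*, a proprotein convertase, had 54.3% in WT and 8.10% in KO, and 21 of its 38 exons were in WT LADs only. *Tll2*, a tolloid-like metalloprotease, had a single WT LAD over 21.6% of the span and none in KO. *Mamdc2*, a MAM-domain protein, lost less, with 91.6% in WT and 58.9% in KO. The AMB gene *Add3*, a membrane skeleton adducin, had a lost WT LAD of 19.95 kb that held 8 of its 15 exons and 50.1 kb of gained LAD that held none. *Pgm5*, a phosphoglucomutase relative found at adhesion junctions, was the other AMB gene, and *Kank1*, *Sh3pxd2a* and *Ablim1* were among the II genes. Over these 11 genes 71.3% of the WT LAD bases were lost.

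The list for lipid, lipoprotein and liver metabolism held a single long gene, the Wnt coreceptor *Lrp5*, which was II. The remaining 20 genes were on none of the lists, although some have related roles, such as *Lipo1*, *Sgms1* and *Pcx* in metabolism, and comprised 2 PI, 5 IP, 2 AMB and 11 II. Their LAD bases were nearly equal in the 2 genotypes, at 15.8% of the summed span in WT and 16.0% in KO, with 35.7% of WT LAD bases lost. *Wdr96*, a protein of cilia and sperm flagella, had the most gained bases of the 61 genes (69.7 kb), with 9.37% of the span in LADs in WT and 47.7% in KO, and 26 of its 38 exons lay in KO LADs only. The other IP genes were *Pacs1*, a sorting adaptor, with 14.3% of the span in KO and 17 of 24 exons in KO LADs only, and *Crtac1*, *Vps13a* and *Rbm20* with 10.3%, 6.68% and 5.47%. All 4 had 0% in WT.

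*Lipo1*, of the acid lipase family, kept the largest share among the genes with at least 50 kb of WT LAD. It lay wholly in a WT LAD and had 80.3% of its span in 6 KO LADs, and all 11 of its exons were in LADs of both genotypes. *Slc22a27* had 97.05% and 47.7%, and its AMB relative *Slc22a29* had 47.2% and 38.9%, with 34.7 kb lost and 26.2 kb gained in different places. The smallest lost shares among genes with at least 50 kb of WT LAD were those of *Lipo1* (19.7%), *Sorcs3* (43.1%), *Mamdc2* (43.2%), *Prune2* (46.1%) and *Slc22a27* (50.9%). Of the 28 genes with no LAD the longest were *Vti1a*, a SNARE of 311.0 kb, *Ablim1*, an actin-binding LIM protein of 282.2 kb, *Sgms1*, a sphingomyelin synthase of 267.0 kb, *Plce1*, a phospholipase C of 260.9 kb, and *Gnaq*. The II genes also included *Pcx*, the pyruvate carboxylase of gluconeogenesis, *Gbf1*, *Exoc6*, *Myof*, *Cpeb3*, *Ppp6r3*, *Macrod1*, 9130011E15Rik and 4930506M07Rik.

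**Figure D2:**
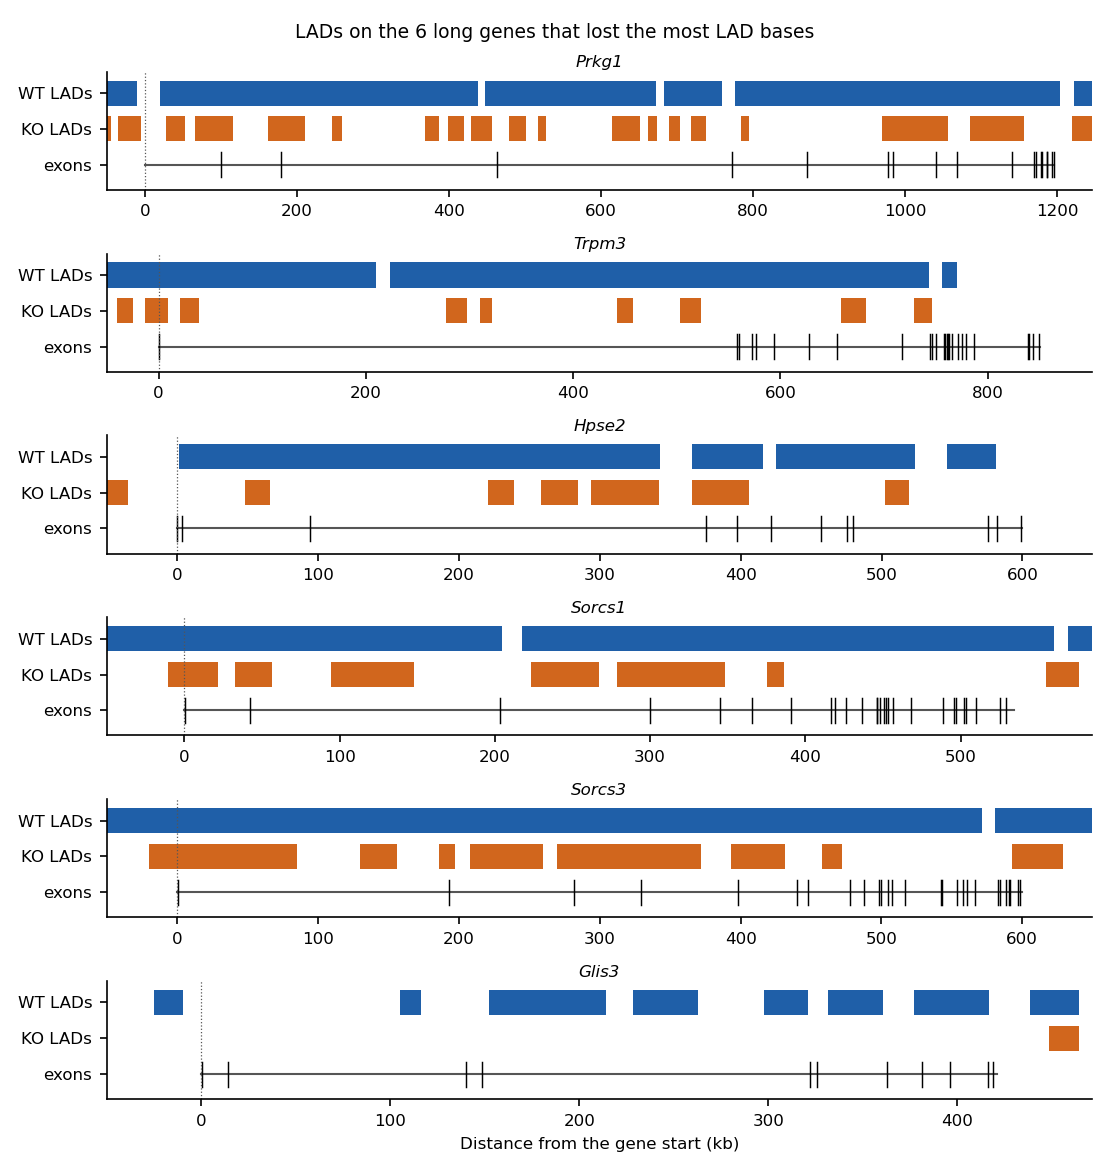
Positions of WT LADs, KO LADs and exons along the 6 long genes with the most lost bases, against the distance from the gene start in kb (dotted line), with 50 kb of flank on each side. *Prkg1* shows 4 WT LADs and 16 KO LADs within the gene, and *Glis3* 6 WT LADs and none in KO.

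KO LADs on these genes were more numerous and shorter than WT LADs. The 68 WT LADs on these genes had a median length of 36.0 kb and reached 835.1 kb, and 17 were at least 100 kb long. The 100 KO LADs had a median of 21.15 kb and reached 119.3 kb, and 3 were at least 100 kb long. Of the WT LADs 27 overlapped no KO LAD, 23 overlapped 1 and 18 overlapped 2 or more. The WT LAD of 520.1 kb within *Trpm3* kept 20.5% of its length, in 6 KO LADs. More numerous LADs in KO were also seen elsewhere: long genes with a WT LAD had on average 2.56 LADs in WT and 3.44 in KO on chromosome 19, and 2.05 and 3.14 on the other chromosomes. KO LADs were also shorter elsewhere by the mean, though by little in the median. Over all LADs the median in WT was 40.9 kb on chromosome 19 and 40.8 kb on the other chromosomes, and in KO it was 21.4 kb and 39.9 kb. The mean was 99.89 kb in WT and 28.57 kb in KO on chromosome 19, and 184.1 kb and 94.33 kb on the other chromosomes, where the longest LAD was 8374 kb in WT and 1748 kb in KO.

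DRs on these genes were mostly inside them, which the length rule favours, since spans were at least 100 kb and most DRs were shorter. Long genes elsewhere were not counted in this way here. Of the 94 WT-only DRs, out of 370 on chromosome 19, 86 lay wholly within the gene, 45 met no exon and 1 covered a gene start. Their median length was 28.3 kb. The 26 KO-only DRs, out of 92, had a median of 20.15 kb and at most 43.15 kb, 15 lay wholly within the gene, and 7 covered a gene start. Counted by exon, 198 of 1276 exons (15.5%) lay in WT LADs only, 91 (7.13%) in KO LADs only, 71 (5.56%) in both and 916 (71.8%) in neither. For long genes of the other chromosomes these shares were 5.22%, 11.1%, 29.6% and 54.1% of 46273 exons.

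Most gene starts lay outside LADs. The start lay in a LAD of WT only in 1 gene (1.64%, with 2.62% of all protein-coding genes), of KO only in 7 (11.5%, with 12.7% of all genes), of both in 4 and of neither in 49 (80.3%). The shares for one genotype only were thus near those of all genes, of which 20.1% had the start in LADs of both and 64.6% in neither. Of the shorter chromosome 19 genes 80.8% had the start in neither and 7.54% in both, close to the long genes of the chromosome, with 9.20% in WT only and 2.41% in KO only. Among long genes of the other chromosomes the start lay in a LAD of WT only in 1.67%, of KO only in 25.85%, of both in 25.5% and of neither in 47.01%. Of the 27 genes with a WT LAD on the span, 16 had the start in no LAD of either genotype, and the distance from the start to the nearest WT LAD was 1.45 kb in *Hpse2*, 3.25 kb in *Rfx3* and 9.96 kb in *Glis3*. *Trpm3*, *Sorcs1*, *Sorcs3* and *Lipo1* had the start in LADs of both. The exception in WT was *Tmc1*, whose nearest KO LAD was 44.3 kb away from the start. These calls depend on the start used: by the start of the transcript with the most exonic bases, *Slc22a29* and *Rfx3* were also in a WT LAD only, *Prkg1* was in LADs of both and *Entpd1* in neither, which gave 3 genes for WT only and 6 for KO only.

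The 7 genes with a start in a KO LAD alone were *Prune2*, *Apba1*, *Pgm5*, *Dock8*, *Rnls*, *Entpd1* and *Rbm20*, the last a splicing factor of heart muscle. Of these 5 were AMB, with a KO-only DR over the start and WT-only DRs further into the gene. In *Apba1* the whole of 53.6 kb of WT LAD was lost, in stretches that held none of its exons, and 38.7 kb was gained in 3 DRs, of which the first ran from 12.1 kb before to 12.6 kb past the start. In *Pgm5* a KO-only DR ran from 2.48 kb before to 14.2 kb past the start and a second lay within the gene, and 6 of its 11 exons were in KO LADs only. In *Prune2*, whose protein carries a BCH domain, the KO-only DR at the start was 30.1 kb long, of which 5.61 kb lay in the gene, and the span in LADs was 46.6% in WT and 42.1% in KO. In *Rnls*, which encodes the flavoprotein renalase, the DR over the start held 3 of 7 exons, while the span in LADs was 77.0% in WT and 37.4% in KO. *Entpd1*, the ectonucleotidase CD39, had nearly equal shares of 25.55% and 27.4%, with 20.1 kb lost and 22.5 kb gained in different places. The start of *Dock8* and of *Rbm20* lay in KO-only DRs of 33.2 kb and 21.0 kb.

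**Figure D3:**
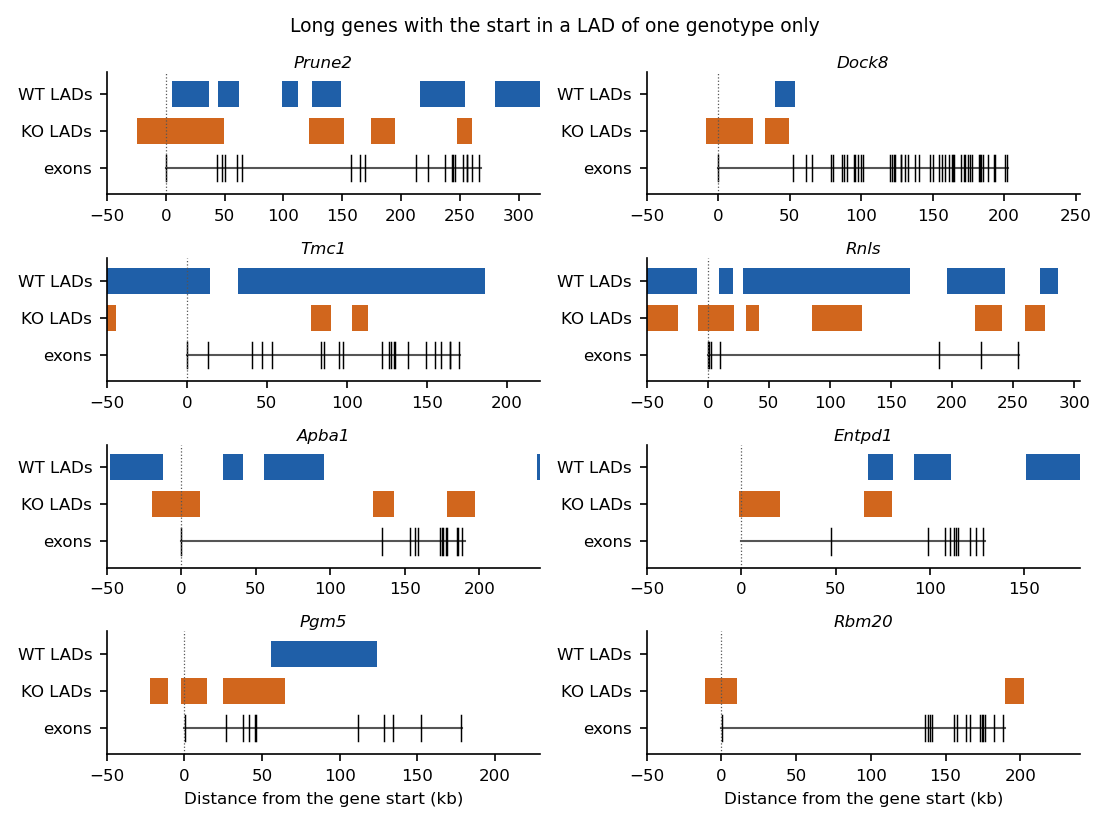
WT LADs, KO LADs and exons along the 8 long genes whose start (dotted line) lay in a LAD of one genotype only, against the distance from the gene start in kb. A KO LAD crosses the dotted line in 7 genes, and in *Tmc1* a WT LAD does.

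The mean profile was taken over all 61 genes and over the 27 with a WT LAD. Over all 61 genes LADs covered 10.3% of the last 10 kb before the start in WT and 21.4% in KO, and 30.3% and 14.8% between 40% and 50% of the span. Over the 27 genes, in WT the share of bases in LADs was 58.0% between 30 and 20 kb before the start, 23.25% in the last 10 kb before it, 38.4% in the first 10% of the span and 68.5% between 40% and 50% of the span. In KO it was 29.8%, 41.6%, 41.9% and 29.9% in the same bins, so KO lay above WT at the start and below it in the body. Gained bases made up 24.2% of the last 10 kb before the start and 4.07% of the bin between 40% and 50% of the span. Among the 1343 long genes of other chromosomes with a WT LAD, the 10 kb before the start had 53.45% in WT, 78.2% in KO and 28.1% gained, so a dip in WT and a peak in KO at the start were present there as well. Between 40% and 50% of the span of those genes the shares were 70.8% in WT and 71.3% in KO. These genes were picked for a WT LAD, which by itself raises the WT share of the body, and the 27 profiles average genes of unequal length.

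**Figure D4:**
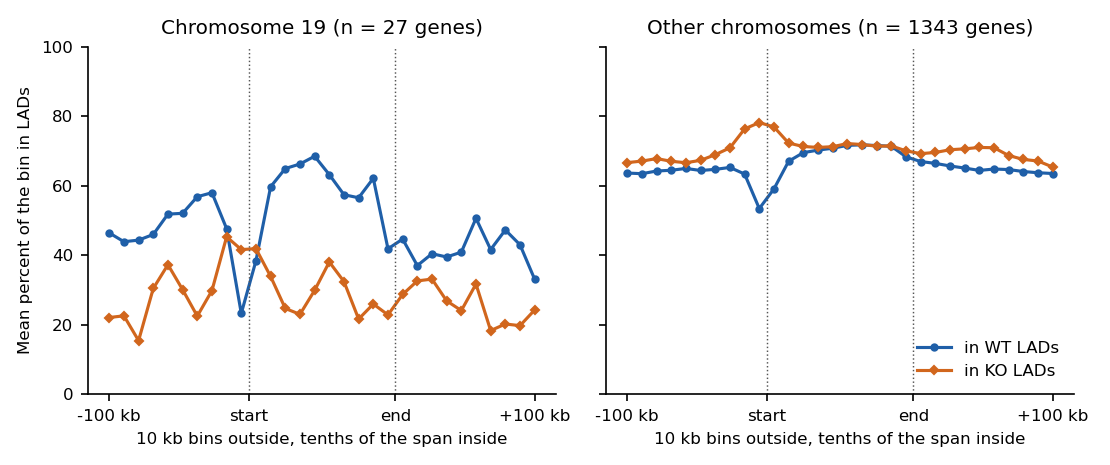
Mean percent of each bin in WT LADs (circles) and KO LADs (diamonds) for long genes with a WT LAD on chromosome 19 (left, n = 27) and on other chromosomes (right, n = 1343), in 10 kb bins outside the gene and 10% bins of the span inside. In the bin before the start the WT share is 23.25% on the left and 53.45% on the right, and the KO share 41.6% and 78.2%.

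On chromosome 19 the lost share of long genes was close to that of the rest of the chromosome. On the other 18 autosomes the long genes lost between 7.18% (chromosome 3) and 21.98% (chromosome 11) of their WT LAD bases, with a median of 14.2%, against 64.5% on chromosome 19. The 663 shorter genes of chromosome 19 lost 61.3%, and the part of the chromosome outside the 61 genes lost 59.7%. The gained share of KO LAD bases, 20.8%, was just above the range of 12.5% to 20.4% for long genes of the other autosomes. That share is taken of the KO LAD bases, which were few on chromosome 19. As a share of the span, gained bases made up 3.76% there. On the other autosomes they made up 7.27% (chromosome 14) to 13.7% (chromosome 3). Lost bases came to 0.302 to 1.44 times the gained bases on those autosomes. The WT share of the span, 40.3%, was also just below the lowest of the others, 41.15% on chromosome 11, and the KO share of 18.1% compared with a lowest value of 39.6% elsewhere, also on chromosome 11.

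**Figure D5:**
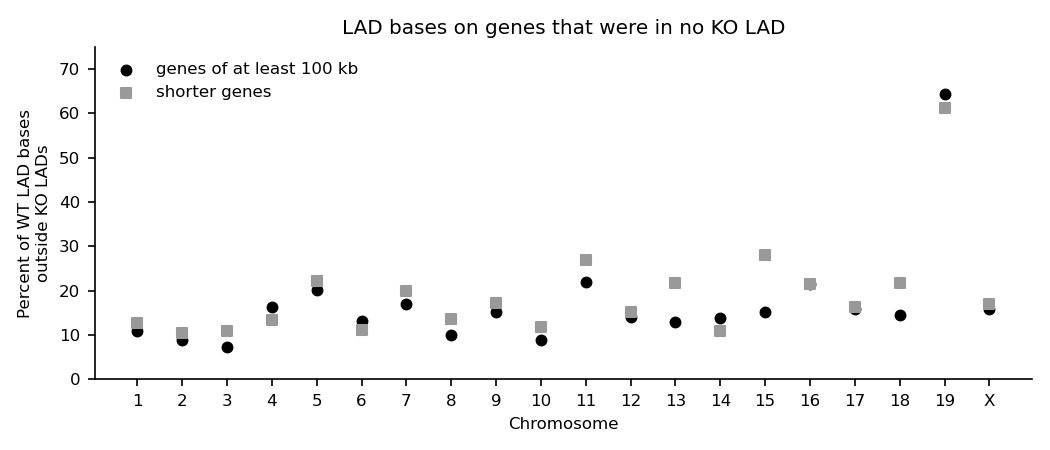
Percent of WT LAD bases on genes that lay outside KO LADs, by chromosome, for genes of at least 100 kb (circles) and shorter genes (squares), summed over the genes of each. Chromosome 19 stands at 64.5% and 61.3%, while long genes of the other autosomes lie between 7.18% and 21.98%.

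Longer genes had more of their span in LADs, while the share lost was similar at all lengths. From 100 to 150 kb (24 genes) WT LADs covered 14.5% of the summed span, from 150 to 250 kb (21 genes) 23.6%, and above 250 kb (16 genes) 60.4%. The lost share of WT LAD bases in these bins was 61.95%, 64.7% and 64.7%, and in the same bins of the other chromosomes it was 15.2%, 14.3% and 13.5%. The gained share of KO LAD bases was 47.9%, 43.4% and 7.50%, and on the other chromosomes 35.2%, 26.2% and 11.5%. WT LADs covered 25.25%, 38.4% and 68.2% of these bins on the other chromosomes, so cover rose with length there too. The gained share fell with length in both sets, but it is taken of KO LAD bases, which covered more of the span in longer bins. As a share of the span, gained bases did not fall from the first bin to the second in either set. They were lowest above 250 kb, at 1.73% on chromosome 19 and 7.68% elsewhere. In each bin that share was lower on chromosome 19 than elsewhere. All 8 IP genes were below 250 kb, whereas 7 of the 16 genes above it were PI, 4 AMB and 5 II. In the same bins of the other chromosomes, IP genes made up 35.7%, 35.3% and 23.1%, and PI genes 8.27%, 14.2% and 27.3%. AMB genes made up 9.31%, 18.6% and 38.7% there, and II genes 37.75%, 21.95% and 4.82%.

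Losses were found along the whole chromosome. By 10 Mb segment from the centromeric end, the lost share was 57.7% (8 genes), 71.5% (8), 82.7% (12), 51.7% (8), 55.3% (15) and 62.4% (9), and the last segment held only *Grk5*, an II gene. The segment from 20 to 30 Mb, with *Tmc1*, *Trpm3*, *Rfx3* and *Glis3*, had the highest value.

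Base composition moved with LAD content. Across the 61 genes, which share the same LAD lists, the GC content of the span correlated with the share in WT LADs (Spearman −0.61, Pearson −0.59) and in KO LADs (−0.52 and −0.44). Median GC was 40.4% in PI, 42.6% in AMB, 44.6% in IP and 45.2% in II genes. Across the 27 genes with a WT LAD, the lost share showed little relation to GC (Spearman 0.20, Pearson 0.08) or to span (−0.14 and −0.03). GATC sites were about equally dense in the classes, with medians of 2.37 per kb in PI, 2.31 in AMB, 2.34 in IP and 2.28 in II genes. Across the 61 genes their density nevertheless correlated with the share in WT LADs (Spearman 0.26, Pearson 0.37) and in KO LADs (0.295 and 0.50).

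Near the length limit PI, AMB and II genes lay on both sides of it, and an IP gene only below it. Within 5 kb above it lay *Slc22a27*, *Slc22a29*, and the II genes *Lrp5* and 4930506M07Rik. Within 5 kb below it lay *Xpnpep1* (PI, 28.97% of the span in WT and 11.0% in KO), *Ccdc147* (PI, 95.4% and 59.7%), *Htr7* (AMB, 94.8% and 80.7%), *Dmrt1* (IP, 0% and 14.1%) and *Afap1l2* (II).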

How the data were processed

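The submitters' processing notes name BWA, limma and the mm9 build, without versions. By the study's methods, the authors took the log2 ratio of LaminB1-Dam to Dam alone per GATC fragment, cut it into LADs by circular binary segmentation and subtracted the LAD lists to obtain DRs. Of the deposited data, 4 position lists were used here (WT and KO LADs, WT-only and KO-only DRs). The study states that the sequence reads and a table joining the DamID analysis to expression data were deposited as well. The lists carry no signal, count or replicate, and the KO libraries were the less deeply sequenced, so genotype and depth cannot be told apart.

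Subtraction of the LAD lists gave all 7787 WT-only and 8208 KO-only DRs at identical positions. Gene spans, the coding transcript with the most exonic bases, and sequences came from the GENCODE annotation and genome of NCBIM37. A gene was placed in a class by an overlap of at least 1 base. The start was the outermost 5′ base of the gene. Computation used Python and numpy, and interval subtraction, joining and class calls were tested on simulated lists. No test was run.

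The genes, role lists, settings and naming rule were chosen with earlier results of these data known. Named were the 12 genes with the most lost bases, the 5 longest, those with at least 10% of the span gained, those with at least 10% in WT LADs and none in KO, those with the start in a LAD of one genotype only, the 5 smallest lost shares with at least 50 kb of WT LAD, the 5 longest without a LAD and those within 5 kb of the length limit. Further genes were named to account for the rest of the set, and some genes counted in it are not reported here by name. Alternatives covered LAD length, joining and trimming, the length limit, the overlap rule, the exon set and the start used. There were 0 columns of values left unmatched.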

Additional observations from a re-analysis of the deposited data

How the results depend on the processing

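Of 150 recomputed values, 106 stayed within 1.5 times the value reported and 44 did not. The lost share of WT LAD bases on the 61 genes ranged from 51.9% (LAD gaps of up to 50 kb joined) to 71.9% (LADs of at least 20 kb), and it was 66.1% without *Prkg1*, a choice made after seeing the data. The lists show no depth, and there is no second library to set these ranges against. No paired analysis was possible because each genotype had 1 LAD list and no test was run.

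With gaps of up to 20 kb joined, PP genes numbered 1, 9 starts lay in WT LADs, and long genes elsewhere lost 8.95%. With gaps of up to 50 kb joined, PP genes numbered 2, 13 starts lay in WT LADs, 9.56% of exons were in LADs of both, and long genes elsewhere lost 4.71% and were PI in 6.07%. With LADs of at least 20 kb, exons in KO LADs only came to 4.39% and in both to 2.98%, 7 genes had a WT LAD and no KO LAD, and 2.41% of shorter chromosome 19 genes were IP.

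With spans of at least 50 kb (133 genes) there were 28 PI, 17 IP, 1 PP and 77 II genes, 9 starts in WT and 17 in KO LADs, and 7 genes with a WT LAD and no KO LAD. With spans of at least 200 kb (23 genes) there were 9 PI, 1 IP, 4 AMB and 9 II genes, medians of 18.5% of the span in WT and 5.54% in KO, 8.16% of KO LAD bases gained, 7 starts in KO LADs, exons at 27.45% in WT only, 2.61% in KO only and 8.71% in both, and 1 gene with a WT LAD and no KO LAD. Long genes elsewhere were then PI in 23.95%.

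A DR over at least 10% of the span left 5 IP and gave 1 PP gene, and over at least 50% it left 7 PI, 0 IP and 0 AMB and gave 17 PP genes. A DR at the start alone gave 1 PI, 0 AMB, 4 PP and 49 II genes. DRs that missed the rule were not counted in these settings, so PP and II genes could still hold a DR. Differences of any length gave 15 AMB genes. By the start of the main transcript, added after seeing the data, 8 starts lay in WT LADs. The cause of these shifts was not tested beyond the change of rule that each setting makes.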
